A study of Mus musculus with 20 samples.

Results

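The genes described here carry out cholesterol synthesis and move or sense sterols in mouse mammary tissue. They are 28 genes of the 45318 gene IDs in the count tables, taken by name: 18 enzymes that build cholesterol from acetyl-CoA, 4 regulators that sense sterol in the endoplasmic reticulum, and 6 genes of sterol transport and of the liver X receptor response. All 28 passed the filter on low counts and were tested. A further 26 genes of the same pathways served as a comparison list.

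Cells make cholesterol from acetyl-CoA by way of mevalonate, farnesyl diphosphate, squalene and lanosterol. When sterol in the endoplasmic reticulum is low, Scap carries the transcription factor SREBP2, the product of Srebf2, to the Golgi, where it is cut and released to switch on the genes of synthesis and uptake. Insig1 and Insig2 hold Scap back when sterol is plentiful. Oxysterols activate liver X receptors, which raise the exporters Abca1 and Abcg1 and Mylip, a ubiquitin ligase that removes lipoprotein receptors.

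Polyadenylated RNA was measured in 20 libraries from mammary tissue of the FVB strain. There were 3 libraries of WT organoids, grown for 6 days from wild type mammary gland. The MMTV-PyMT model expresses the polyoma middle T antigen in mammary epithelium from the mammary tumor virus promoter. It was sampled as tumor sections of 30 µm (n = 3), as tumor organoids at day 0 (n = 3) and as organoids at day 6 (n = 3). For 2 more PyMT organoid libraries the title gives no day while the culture time is 6 days, and these are called undated. The MMTV-Neu-NDL model has an activated Neu (ErbB2) behind the same promoter and was sampled as tumor organoids grown for 6 days (n = 3). The last model, MMTV-Cre;Flox-Neo-Neu-NT, was sampled as tumor sections (n = 3), and in it Cre made from the MMTV promoter removes a floxed Neo cassette that precedes an activated Neu. The growth protocol describes PyMT organoids in Matrigel with FGF2, and no drug or other treatment is named. Organoids are meant to be fragments of epithelium, whereas a section can hold every cell type of the tumor. Some organoid libraries here also held markers of endothelial, fibroblast or myeloid cells, as given below.

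Gene counts per library ran from 17478357 to 48341438. Whether replicates came from separate animals is not labelled, and each p-value therefore reflects only the spread among these samples, which may be technical. In bulk samples such as these, fewer cells of a type and less RNA per cell cannot be told apart. A single PyMT organoid library, day 6 replicate 3, differed from the rest of the libraries with 6 days. Its summed markers were 165.7 CPM for 7 endothelial genes against 5.05 to 6.57 in the other 4 PyMT libraries with 6 days, 2716 against 47.8 to 149.7 for 6 fibroblast genes, and 83.9 against 1124 to 6442 for 8 basal and myoepithelial genes. Of the basal list, Krt5, Krt14, Trp63 and Oxtr were lower in that library than in the other 4. Tagln and Myh11 were higher than in those 4, and Acta2 and Cnn1 lay within their range. Neu-NT sections replicate 3 also stood apart, with 1816 CPM for the basal list against 126.6 and 66.0 in replicates 1 and 2. Krt14 alone made up 1453 CPM of that 1816. CPM expresses a gene's counts relative to the total of its library, after adjustment of the libraries to each other. All 7 luminal markers, such as Krt8 and Epcam, had counts in every library, with 4128 to 10362 CPM over the 7 genes. Krt19 of this list was uneven. It held 1107 to 1433 CPM in WT organoids, 2.84 and 4.24 in Neu-NT sections replicates 1 and 2, and 4606 in replicate 3. Neu-NDL organoids held 256.9, 61.1 and 29.3 CPM of it.

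In WT organoids the highest member per kilobase of exon was Hmgcs1, at 46.8 CPM per kb (mean of n = 3), followed by Pmvk at 42.9 and Insig1 at 36.2. Abcg1 at 2.66 and Fdps at 1.66 CPM per kb were the lowest. Fdps shares 26.7% of its exon bases with Gm43738 on the same strand, and Fdft1 shares 18.3% with Ctsb on the opposite strand. Smaller shares, of 12.1 to 13.2%, apply to Tm7sf2, Hmgcs1 and Scap. The strand setting of the counting is not given in the sources used here, so the levels of these 5 genes may miss or share reads.

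**Figure D1:**
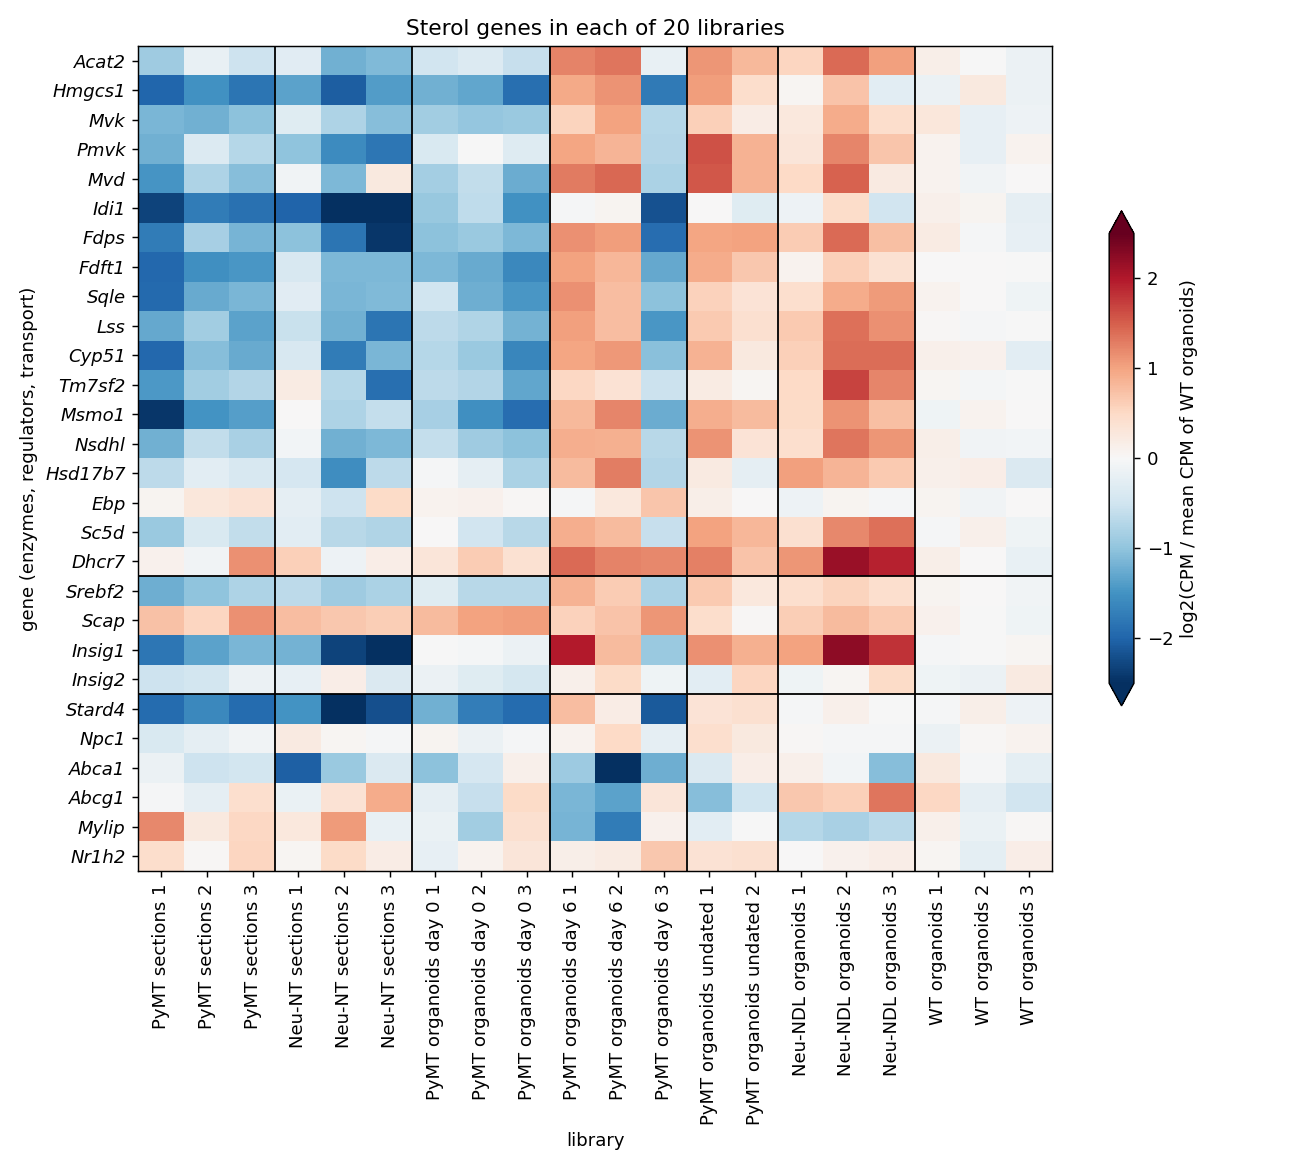
Level of each of the 28 genes (rows: enzymes in pathway order, regulators, transport genes) in each of 20 libraries (columns), as log2 of CPM over the mean CPM of the 3 WT organoid libraries, with red above and blue below WT. Most enzyme rows are blue in the sections and day 0 organoids and red in the tumor organoids with 6 days. PyMT organoids day 6 replicate 3 is blue like the sections.

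After 6 days of culture PyMT organoids had more RNA for most enzymes of cholesterol synthesis than PyMT tumor sections did. Of 28 members, 18 were higher and 1, Mylip, was lower at an adjusted p under 0.05 (edgeR quasi-likelihood test, Benjamini-Hochberg over 18698 genes), when day 6 and undated libraries were averaged with equal weight. Over all genes tested 16.0% were called, 7.69% higher and 8.3% lower. The 18 comprised 14 of 18 enzymes, 2 of 4 regulators (Srebf2 and Insig1) and 2 of 6 transport genes (Stard4 and Npc1). The median log2 fold change was 1.48 over the 28 members and -0.06 over all genes.

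The calls in this comparison depended on how the model was fitted. No member was called when only these libraries entered the fit, with or without the replicate number as a block, or when the 3 libraries titled day 6 stood alone for the 6 days, and then no gene in the whole table was called either. At an unadjusted p under 0.05 those 3 edgeR fits had 18, 18 and 22 members higher. The share of all genes at that unadjusted threshold is not given, here or below. DESeq2 called 20 members higher and 1 lower, beside 23.9% of all genes. Without PyMT sections replicate 1 the fit called 0 members, without undated replicate 1 it called 9, and without day 6 replicate 3 it called 21 higher and 2 lower. Over all genes these last fits called 0.0%, 2.58% and 34.5%, in that order.

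The opening steps make mevalonate and then its activated isoprene units. Acat2, which joins acetyl-CoA units, measured 26.2, 42.9 and 34.1 CPM in the 3 sections. At 6 days it was at 113.9, 122.7 and 42.8 CPM in day 6 organoids and 104.3 and 84.9 in undated ones. Only day 6 replicate 3 reached down into the range of the sections, and on the log2 scale the difference was 1.45 ± 0.32 (SE, adjusted p = 0.0159).

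Hmgcs1, HMG-CoA synthase, had one of the widest gaps. Its sections held 54.2, 75.5 and 60.6 CPM, the day 6 organoids 416.6, 468.1 and 62.8, and the undated organoids 445.2 and 290.2. It was 5.37-fold higher in the 6 day organoids, or 2.43 ± 0.49 on the log2 scale (SE, adjusted p = 0.0131). Day 6 replicate 3 lay among the sections.

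Mevalonate is then phosphorylated by Mvk and Pmvk and decarboxylated by Mvd. Mvk was at 10.9, 10.5 and 11.8 CPM in sections, 35.2, 48.5 and 14.6 at day 6, and 36.3 and 27.2 in undated libraries, so the groups did not overlap (log2 fold change 1.54 ± 0.31, adjusted p = 0.0130). Pmvk measured 32.2, 58.0 and 45.1 CPM in sections, 146.0, 132.0 and 44.3 at day 6, and 220.3 and 135.1 in undated libraries (1.62 ± 0.35, adjusted p = 0.0154). Mvd went from 12.5, 20.3 and 16.5 CPM in sections to 85.8, 94.2 and 20.1 at day 6 and 101.8 and 63.5 in undated libraries (2.18 ± 0.46, adjusted p = 0.0142). For Pmvk and Mvd, day 6 replicate 3 again lay within the range of the sections.

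Idi1 interconverts the isoprene units and Fdps joins them into farnesyl diphosphate. Idi1 was at 13.3, 19.6 and 18.2 CPM in sections, 64.6, 68.8 and 14.5 at day 6, and 66.6 and 53.6 in undated libraries (log2 fold change 1.67 ± 0.43, adjusted p = 0.0235). Fdps was at 2.08, 3.92 and 3.13 CPM in sections, 15.5, 14.4 and 1.86 at day 6, and 13.9 and 14.0 in undated libraries (2.0 ± 0.52, adjusted p = 0.0251). In day 6 replicate 3 Fdps was below every section.

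Squalene and lanosterol are made by Fdft1, Sqle and Lss, squalene synthase, squalene epoxidase and lanosterol synthase. Fdft1 measured 25.7, 34.8 and 36.6 CPM in sections, 201.8, 179.2 and 41.5 at day 6, and 192.1 and 160.2 in undated libraries, with no overlap (log2 fold change 2.28 ± 0.38, adjusted p = 0.0109). Sqle was at 41.7, 66.2 and 72.6 CPM in sections, 351.3, 270.9 and 78.1 at day 6, and 236.5 and 201.2 in undated libraries (1.91 ± 0.40, adjusted p = 0.0140). Lss was at 50.6, 66.7 and 48.2 CPM in sections, 247.9, 209.6 and 44.6 at day 6, and 193.3 and 161.2 in undated libraries (1.64 ± 0.42, adjusted p = 0.0227). Sqle did not overlap between the groups, while Lss in day 6 replicate 3 was below every section.

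The steps after lanosterol strip methyl groups and shift double bonds. Cyp51, lanosterol demethylase, measured 28.2, 52.0 and 45.9 CPM in sections, 215.2, 232.8 and 52.9 at day 6, and 198.5 and 129.1 in undated libraries (log2 fold change 1.98 ± 0.45, adjusted p = 0.0166). Msmo1, the methylsterol oxidase, was at 13.2, 25.4 and 27.5 CPM in sections, 125.8, 166.8 and 30.4 at day 6, and 134.0 and 123.3 in undated libraries (2.42 ± 0.45, adjusted p = 0.0114). Both genes were above every section in all 5 libraries with 6 days, by a narrow margin in day 6 replicate 3.

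Nsdhl, which acts after Msmo1, held 29.1, 43.3 and 38.1 CPM in sections, 124.6, 123.7 and 41.1 at day 6, and 144.3 and 83.7 in undated libraries (log2 fold change 1.51 ± 0.37, adjusted p = 0.0198). Sc5d, a sterol desaturase, held 27.6, 40.7 and 34.5 CPM in sections, 99.2, 91.4 and 35.5 at day 6, and 106.6 and 93.7 in undated libraries (1.34 ± 0.30, adjusted p = 0.0169). Day 6 replicate 3 lay inside the range of the sections for both.

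The other 4 enzymes were not called. Tm7sf2, a sterol reductase, was at 1.14 ± 0.39 on the log2 scale (adjusted p = 0.0566) and did not overlap between groups. Hsd17b7, a ketosteroid reductase of the same stretch, had 0.78 ± 0.35 (adjusted p = 0.132). Ebp, the sterol isomerase, was level at 65.2 ± 6.65 CPM (SD, n = 3) in sections and 65.6 ± 14.4 (SD, n = 5) at 6 days. Dhcr7, the last reductase, measured 94.5, 82.2 and 193.2 CPM in sections, 233.9, 209.1 and 202.9 at day 6, and 209.2 and 145.0 in undated libraries (0.66 ± 0.28, adjusted p = 0.110). Unlike the enzymes above, Dhcr7 in day 6 replicate 3 was close to the other day 6 libraries.

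**Figure D2:**
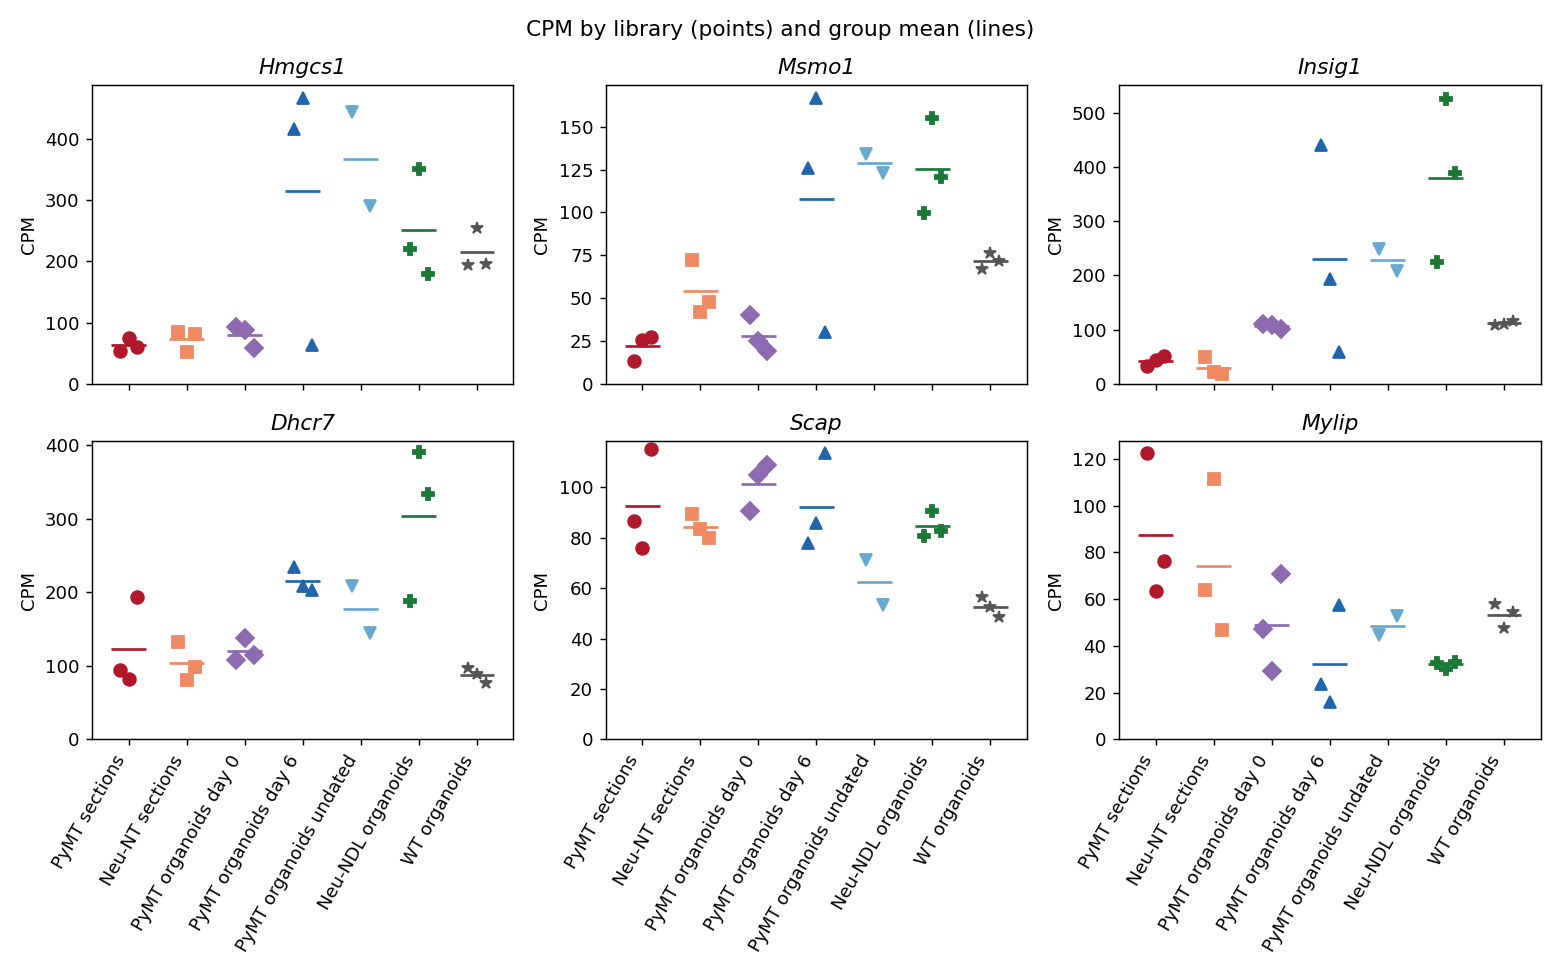
CPM of 6 genes (panels, linear axes from 0) in each library (points) of the 7 groups, with the group mean as a line. Hmgcs1, Msmo1 and Insig1 are lower in sections than in tumor organoids with 6 days, apart from 1 low day 6 point. Msmo1 in WT organoids overlaps with Neu-NT sections. Dhcr7 is highest in Neu-NDL organoids, Scap is lowest in WT organoids, and Mylip is highest in a PyMT section at 122.4 CPM.

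Among the regulators, Srebf2 encodes the factor that drives the enzymes. It was at 101.2, 117.6 and 137.9 CPM in sections, 430.6, 364.2 and 136.4 at day 6, and 370.9 and 281.8 in undated libraries (log2 fold change 1.42 ± 0.27, adjusted p = 0.0123). Insig1, itself a target of that factor, was at 31.8, 44.2 and 50.7 CPM in sections, 440.8, 193.4 and 58.8 at day 6, and 248.6 and 207.9 in undated libraries (2.44 ± 0.51, adjusted p = 0.0137). Insig1 was above every section in all 5 libraries, and its day 6 values spanned the widest range of the regulators. Scap (-0.29 ± 0.16, adjusted p = 0.202) and Insig2 (0.55 ± 0.21, adjusted p = 0.0741) were not called.

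Stard4, a cytosolic sterol carrier, measured 25.4, 31.6 and 25.4 CPM in sections, 163.5, 109.5 and 22.4 at day 6, and 121.9 and 126.8 in undated libraries (log2 fold change 2.01 ± 0.44, adjusted p = 0.0155). Npc1, which exports cholesterol from lysosomes, had a small difference, from 47.9, 53.5 and 58.9 CPM in sections to 67, 88.7 and 53.5 at day 6 and 83.9 and 74.6 in undated libraries (0.48 ± 0.14, adjusted p = 0.0379). Mylip was the only member called lower. It measured 122.4, 63.5 and 76.2 CPM in sections, 23.7, 15.9 and 57.3 at day 6, and 44.6 and 52.8 in undated libraries, with no overlap (-1.14 ± 0.37, adjusted p = 0.0489). The exporters Abca1 (-0.37 ± 0.39, adjusted p = 0.518) and Abcg1 (-0.72 ± 0.38, adjusted p = 0.192), and Nr1h2, a liver X receptor (0.02 ± 0.17, adjusted p = 0.947), were not called. Without day 6 replicate 3, Abcg1 was called lower (-1.08, adjusted p = 0.018) and Mylip was at -1.50.

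**Figure D3:**
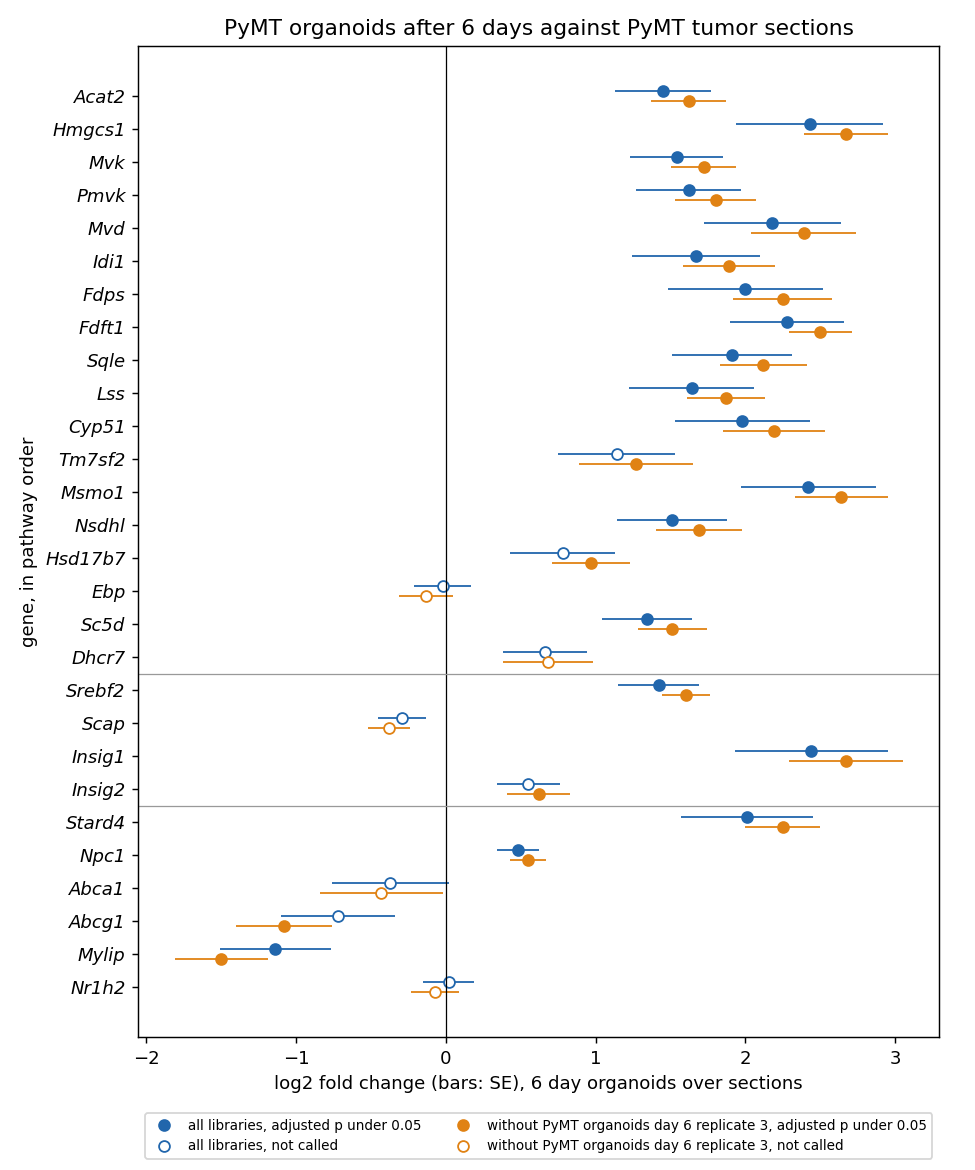
Log2 fold change (x axis) of each gene (y axis, in pathway order) in PyMT organoids with 6 days over PyMT sections, with bars of 1 SE, for all libraries (blue) and without day 6 replicate 3 (orange), filled where the adjusted p was under 0.05. Fold changes of the called enzymes run from 1.34 for Sc5d to 2.43 for Hmgcs1 with all libraries, Ebp sits at 0, and Mylip lies at -1.14.

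Leaving out day 6 replicate 3, the 4 other PyMT libraries with 6 days were all above all 3 sections for 20 of 28 members and 16 of 18 enzymes, an arrangement found for 17.2% of all genes. With that library included the number was 7 of 28, and 5.1% of all genes. Mylip was the 1 member below all sections in all 5, as were 7.09% of all genes. Day 6 replicate 3 was below the other 4 libraries with 6 days for 20 of 28 members and 16 of 18 enzymes, as were 29.4% of all genes. For 18 of 28 members (64.3%) it lay within the range of the 6 PyMT libraries that were not cultured, as it did for 61.1% of all genes.

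Markers of other cell types differed in the same comparison. In the 6 day PyMT organoids against PyMT sections, 6 of 7 endothelial, 7 of 7 adipocyte and 6 of 10 macrophage and myeloid markers were called lower. So were 3 of 8 lymphocyte, 1 of 6 fibroblast and 2 of 8 basal markers, and 1 of 7 luminal markers was called higher. The basal list went both ways, with a median log2 fold change of 0.22. It summed to 72.5 to 292.6 CPM in sections, 83.9 in day 6 replicate 3 and 1124 to 6442 in the other 6 day libraries. In those other libraries Krt5, Krt14 and Trp63 were above every section, Tagln and Myh11 were below every section, and the rest overlapped. Macrophage and myeloid markers summed to 551.7 to 865.8 CPM in sections and 97.6 to 271.6 in the 6 day libraries other than day 6 replicate 3, which held 502.7. Fibroblast markers summed to 1936 to 5912 CPM in sections. The 18 enzymes together summed to 544.7, 742.4 and 790.0 CPM in sections, 2609, 2589 and 849.0 at day 6, and 2521 and 1868 in undated libraries. Lymphocyte markers summed to 1.66 to 6.86 CPM in sections and to at most 0.201 CPM in the 4 other libraries with 6 days, where 5 to 7 of the 8 were at 0. The part of cell makeup in the enzyme difference was not tested.

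**Figure D4:**
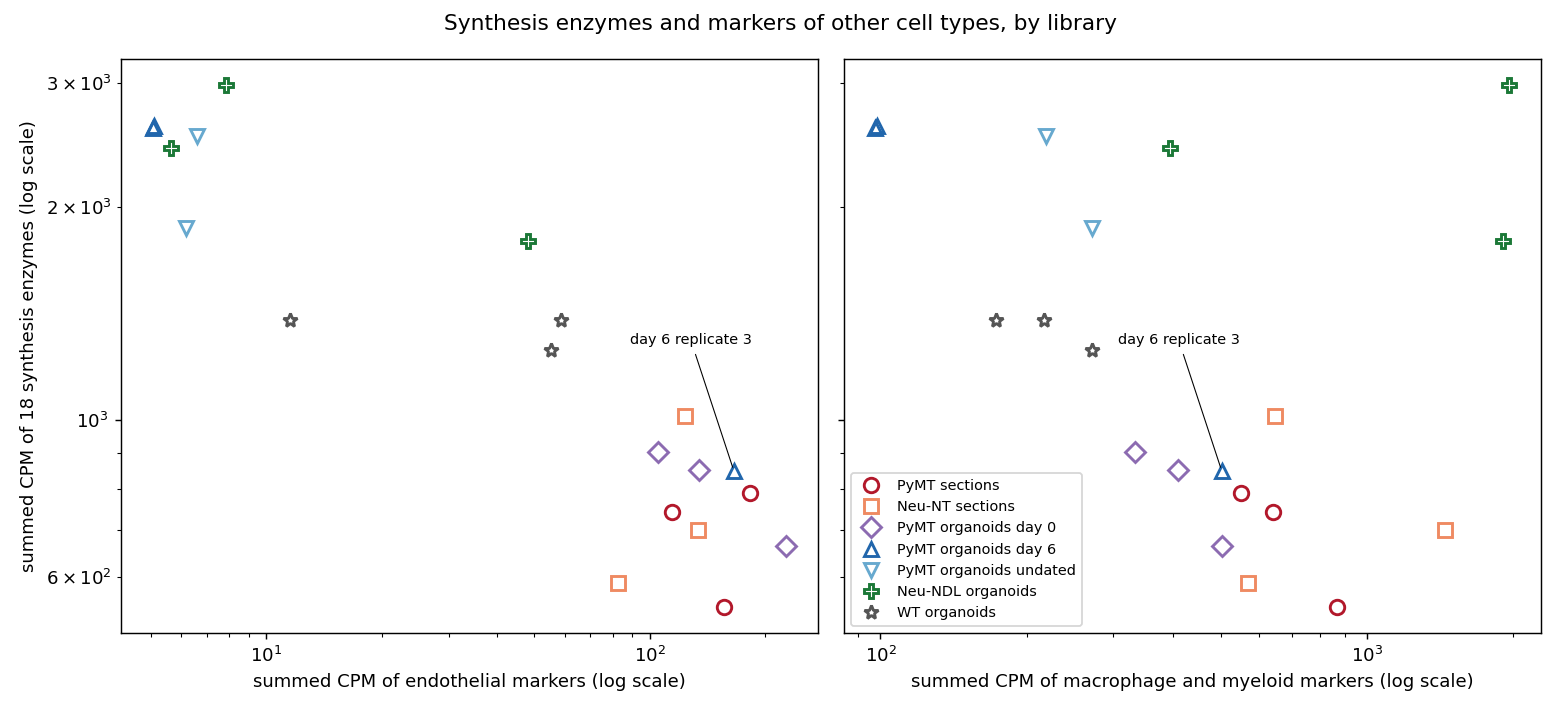
Summed CPM of the 18 enzymes (y axis, log scale) against summed CPM of endothelial markers (left, log scale) and of macrophage and myeloid markers (right, log scale), 1 point per library. PyMT organoids day 6 replicate 3, at 849.0 CPM of enzymes and 165.7 of endothelial markers, sits with the sections and day 0 organoids, while Neu-NDL replicates 1 and 2 hold 1904 and 1957 CPM of myeloid markers with 1793 and 2982 of enzymes.

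Promoter sequence was looked at because so many enzymes were higher together. RefSeq windows of 250 bases before to 50 after the start site (GRCm38.p6) were matched for 22 of 28 members, 28 windows in all. Fdps, Fdft1, Sqle, Stard4, Abcg1 and Npc1 had no window. The sterol response element, bound by SREBP2, was searched only as the string TCACNCCAC, so other forms of the site would be missed. That string was in the window of 1 member, Hmgcs1, which is 3.57% of the members' windows, and in 1.24% of 32817 windows. CCAAT, the box bound by NF-Y, a partner of SREBP factors, was in 18 of the 22 genes. It was in 64.3% of the members' windows, 77.8% of the windows of enzymes and 37.4% of all windows. The liver X receptor element DR4, a pair of AGGTCA repeats set 4 bases apart, was in none of the members' windows and in 0.0152% of all windows. Both strands were searched, CCAAT and its reverse form ATTGG were counted alike, and none of these 3 motifs contains another. A match describes the letters and does not show binding.

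Stretches before the start site are shown for 3 called enzymes with the element or with several boxes and for Scap, whose level did not follow the enzymes. Capitals mark the motif matches, each run is 5′ to 3′ on the gene's own strand, and ATTGG is the box on the other strand.
Hmgcs1 (chr13:119690165-119690350, + strand): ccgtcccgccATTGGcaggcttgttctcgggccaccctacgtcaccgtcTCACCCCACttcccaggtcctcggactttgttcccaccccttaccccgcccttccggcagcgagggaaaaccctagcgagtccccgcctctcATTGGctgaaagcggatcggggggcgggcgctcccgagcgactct
Mvk (chr5:114444086-114444268, + strand): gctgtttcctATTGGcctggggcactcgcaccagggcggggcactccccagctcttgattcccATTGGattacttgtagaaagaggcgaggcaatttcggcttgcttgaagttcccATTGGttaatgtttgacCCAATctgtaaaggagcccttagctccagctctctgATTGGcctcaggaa
Mvd (chr8:122443423-122443492, - strand): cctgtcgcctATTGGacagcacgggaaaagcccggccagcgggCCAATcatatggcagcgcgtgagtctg
Scap (chr9:110333188-110333287, + strand): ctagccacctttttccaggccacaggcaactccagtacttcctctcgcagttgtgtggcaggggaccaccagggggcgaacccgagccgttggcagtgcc
The Hmgcs1 run holds the sterol response element between 2 CCAAT boxes, the Mvk run holds 5 boxes, the Mvd run 2, and the Scap run 0. These runs do not stand for all members. Boxes were also in the windows of Mylip, called lower, and of Ebp, Insig2, Dhcr7, Tm7sf2 and Hsd17b7, not called. Acat2, called higher, had a window without a box.

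Among the 26 other sterol genes, 6 were higher and 3 lower in the 6 day PyMT organoids than in sections. Scarb1, a lipoprotein receptor, was at 2.38 ± 0.41 on the log2 scale (adjusted p = 0.0109), with 58.4, 57.6 and 57.0 CPM in sections, 384.0, 205.8 and 54.6 at day 6, and 492.1 and 342.8 in undated libraries. Lrp8, another lipoprotein receptor, was at 2.06 ± 0.66 (adjusted p = 0.0445). Cyp27a1, which makes oxysterols, was at -2.71 ± 0.68 (adjusted p = 0.0220) and Nr1h3, the other liver X receptor, at -1.96 ± 0.47 (adjusted p = 0.0194). Cyp27a1 in day 6 replicate 3 was at 11.4 CPM, against 0.369 to 0.990 in the 4 others and 6.18 to 12.2 in sections.

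The day 0 organoids carry the same PyMT transgene without the days of culture. Between the libraries titled day 6 and day 0, edgeR called no member, beside 0.626% of all genes (0.166% higher and 0.46% lower), while 19 members were higher and 1 lower at an unadjusted p under 0.05. DESeq2 called 11 members higher, beside 4.42% of all genes in either direction. Without day 6 replicate 3, edgeR called 17 higher and 1 lower, beside 13.0% of all genes in that fit. These included Hmgcs1 at 2.47 (adjusted p = 0.000431), Fdft1 at 2.24 (adjusted p = 0.00016) and Mylip at -1.31 (adjusted p = 0.0397). The median log2 fold change over members was 1.01 with all libraries and 0.04 over all genes. Same-numbered day 0 and day 6 libraries deviated together, and with only these libraries in the fit edgeR called no member, with 11 higher and 0 lower at an unadjusted p under 0.05. With the replicate block added to that fit it called none, with 11 higher and 1 lower.

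Day 0 values were low for most enzymes. Hmgcs1 was at 93.0, 87.6 and 58.2 CPM, Fdft1 at 45.9, 42.2 and 32.7, and Msmo1 at 40.2, 24.8 and 19.1. These values overlapped with those of the sections and lay below day 6 replicates 1 and 2. Insig1 was an exception among the low genes, with 110.5, 108.9 and 101.6 CPM at day 0, above all 3 sections. Against PyMT sections, edgeR called no member in day 0 organoids, beside 0.444% of all genes (0.428% higher and 0.016% lower). There, 2 members were higher and 0 lower at an unadjusted p under 0.05, and DESeq2 called none. All 3 day 0 libraries were above all 3 sections for 4 members, Mvk, Idi1, Srebf2 and Insig1, as for 7.6% of all genes. The 4 PyMT libraries with 6 days other than day 6 replicate 3 were above all 6 uncultured PyMT libraries for 19 of 28 members, as for 12.1% of all genes.

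Endothelial markers were at 105.3 to 227.0 CPM at day 0, overlapping with the 114.3 to 183.1 of PyMT sections. Fibroblast markers were at 688.4 to 944.9, below the 1936 to 5912 of sections. Over the 3 day 6 libraries the endothelial sums were 5.10, 5.05 and 165.7 CPM. The part of these cells was not tested.

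Of the comparison list, 1 of 26 genes, Srebf1, was called between day 6 and day 0. Srebf1 encodes SREBP1, which favours fatty acid genes. It measured 1211, 1874 and 2260 CPM at day 0 and 770.8, 490.1 and 635.1 at day 6, with no overlap (log2 fold change -1.50 ± 0.29, adjusted p = 0.0267). Its fold change was opposite in sign to that of Srebf2, at 191.1, 146.3 and 145.7 CPM at day 0 (0.95 ± 0.29, adjusted p = 0.135). For Srebf1, day 6 replicate 3 lay between the other day 6 libraries.

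Tumor organoids were next compared with WT organoids after the same 6 days. These comparisons and those of the sections below share the 3 WT libraries. In PyMT organoids 1 of 28 members was called higher and 0 lower, beside 1.4% higher and 2.49% lower, 3.89% in all, over all genes. The gene was Dhcr7, at 97.4, 89.1 and 77.3 CPM in WT organoids and at 145.0 or more in each of the 5 PyMT libraries (log2 fold change 1.15 ± 0.29, adjusted p = 0.0382). At an unadjusted p under 0.05, 8 members were higher and 0 lower. The call for Dhcr7 was lost without any 1 of the WT libraries, without day 6 replicate 1, without undated replicate 1, or with the undated libraries alone for the 6 days, over an adjusted p range of 0.00227 to 0.168.

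Leaving out day 6 replicate 3 gave 11 members higher and 0 lower in PyMT organoids against WT, beside 10.8% of all genes in that fit. Among the 11 were Acat2 at 1.12 (adjusted p = 0.0117), Insig1 at 1.27 (adjusted p = 0.0362) and Mvd at 1.31 (adjusted p = 0.0233). In that set of 4, 17 of 28 members were above all WT libraries, as were 11.9% of all genes. Idi1 overlapped with WT, at 72.0, 69.3 and 56.5 CPM in WT organoids and 53.6 to 68.8 in those 4. Stard4 did not, at 93.8, 107.0 and 88.0 CPM in WT and 109.5 to 163.5 in those 4. Abcg1 was below every WT library in all 4, as were 17.6% of all genes. Basal markers were called lower for 5 of 8 genes in the PyMT organoids, with 2550 to 3261 CPM in WT organoids and 83.9 to 6442 over the 5 PyMT libraries. Their part was not tested.

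Neu-NDL organoids had 2 of 28 members higher than WT organoids and 0 lower, beside 2.47% higher and 2.06% lower, 4.52% in all, over all genes. Dhcr7 was at 188.6, 390.5 and 334.0 CPM (log2 fold change 1.79 ± 0.32, adjusted p = 0.00920), 3.46-fold above WT. Scap was at 80.8, 90.5 and 82.7 CPM against 56.4, 52.3 and 48.7 in WT organoids (0.69 ± 0.17, adjusted p = 0.0347). Neither gene overlapped with WT. All 3 Neu-NDL libraries were above all WT libraries for 18 of 28 members, as for 17.0% of all genes. Insig1, at 225.7, 526.7 and 389.9 CPM against 109.1, 110.8 and 115.9, had the next largest fold change (1.77 ± 0.52, adjusted p = 0.0642).

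The spread between Neu-NDL libraries was wide. Replicate 1 was lowest for 14 of 18 enzymes and replicate 2 highest for 15. Replicate 1 held 2773 CPM of fibroblast markers against 146.3 and 183.1 in the others. Myeloid markers summed to 1904 and 1957 CPM in replicates 1 and 2, 393.9 in replicate 3 and 173.1 to 272.4 in WT organoids, and 4 of 10 were called higher than WT. Basal markers summed to 110.5 to 556.2 CPM in Neu-NDL organoids, and 4 of 8 were called lower. Their part was not tested. With only the Neu-NDL and WT libraries in the fit, 13 members were called higher and 1 lower, beside 11.3% of all genes. With the block added to that fit 0 were called, beside 2.36% of all genes, with 16 higher and 1 lower at an unadjusted p under 0.05. The calls numbered 4 without Neu-NDL replicate 1 and 0 without WT replicate 3, beside 6.95% and 0.619% of all genes. They numbered 1 without WT replicate 1, WT replicate 2, Neu-NDL replicate 2 or Neu-NDL replicate 3, beside 0.807 to 0.984% of all genes. Omitting PyMT day 6 replicate 3 and Neu-NT replicate 3, which are not in this comparison, gave 11, beside 14.5% of all genes.

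Of the 26 comparison genes, 0 were called in PyMT organoids against WT by edgeR, with 3 higher and 2 lower at an unadjusted p under 0.05. In Neu-NDL organoids 1 was called, Nceh1, a cholesteryl ester hydrolase, at 28.5, 31.1 and 32.2 CPM against 10.6, 13.5 and 10.6 in WT (1.40 ± 0.28, adjusted p = 0.0157).

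Set directly against each other, Neu-NDL organoids and 6 day PyMT organoids differed in 1 of 28 members, beside 7.12% of all genes (4.7% higher and 2.42% lower in Neu-NDL). Abcg1, a sterol exporter, was at 31.0, 29.3 and 48.9 CPM in Neu-NDL organoids. In PyMT organoids it was at 8.79, 7.68 and 23.8 CPM at day 6 and 9.29 and 13.8 in undated libraries. Every Neu-NDL library was above every PyMT one, with a difference of 1.55 ± 0.38 on the log2 scale (adjusted p = 0.0273). WT organoids held 27.6, 16.6 and 14.0 CPM, below every Neu-NDL library and above the PyMT libraries other than day 6 replicate 3. Neither model's difference from WT was called by edgeR for this gene (adjusted p = 0.244 for Neu-NDL and 0.365 for PyMT). The call between the 2 models was lost without Neu-NDL replicate 3, undated replicate 1 or undated replicate 2. It was also lost with only these libraries in the fit, with or without the block, or with either 6 day PyMT set alone. Adjusted p ran from 0.000792 to 0.158 over the alternatives.

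No enzyme was called between the organoids of the 2 tumor models, with 2 of 18 higher in Neu-NDL at an unadjusted p under 0.05, and DESeq2 called Tm7sf2 at 1.06 (adjusted p = 0.047). Msmo1 differed by 0.09 ± 0.40 and Acat2 by 0.09 ± 0.30. Hmgcs1 differed by -0.44 ± 0.44. Adjusted p was 0.916, 0.890 and 0.571 for these genes, which does not show that the models act alike. Macrophage and myeloid markers were called higher in Neu-NDL organoids for 7 of 10 genes, and Csf1r, the receptor that defines these cells, was at 78.4, 73.8 and 31.4 CPM in Neu-NDL and 1.07 to 2.77 in PyMT libraries other than day 6 replicate 3, at 48.2. Ch25h, which makes an oxysterol, was called at 3.99 ± 0.91 (adjusted p = 0.0212), with 10.4, 1.80 and 0.818 CPM in Neu-NDL organoids, and Nceh1 at 0.95 ± 0.25 (adjusted p = 0.0321). Ch25h in Neu-NDL replicate 3 overlapped with PyMT day 6 replicate 3, at 1.01 CPM. The part of myeloid cells in the Abcg1 and Ch25h values was not tested.

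Tumor sections were lower than WT organoids for many enzymes. Culture, cell makeup and genotype differ together here and cannot be told apart. In PyMT sections 8 of 28 members were lower and 1 higher, beside 6.05% lower and 6.45% higher over all genes. The 8 were Hmgcs1, Mvk, Idi1, Fdft1, Sqle and Msmo1 of the enzymes, and Srebf2 and Stard4. Idi1 fell by 1.95 ± 0.46 on the log2 scale (adjusted p = 0.0176), from a WT level of 56.5 to 72.0 CPM. Stard4 fell by 1.81 ± 0.47 (adjusted p = 0.0234) and Hmgcs1 by 1.76 ± 0.50, from 194.2, 254.9 and 195.4 CPM in WT (adjusted p = 0.0339).

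Fdft1 held 101.1, 101.1 and 99.2 CPM in WT organoids and fell by 1.64 ± 0.40 (adjusted p = 0.0190). Msmo1 held 66.8, 76.3 and 71.7 CPM in WT organoids and fell by 1.70 ± 0.46 (adjusted p = 0.0282). Srebf2 held 246.6, 237.7 and 220.9 CPM in WT organoids and fell by 0.98 ± 0.29 (adjusted p = 0.0378). Sqle held 169.7, 160.3 and 148.6 CPM there, and Mvk 29.1, 20.9 and 22.0. None of these genes overlapped between sections and WT organoids. Scap, by contrast, was higher in PyMT sections, at 86.6, 75.8 and 115.1 CPM (0.82 ± 0.17, adjusted p = 0.0122).

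All 3 PyMT sections were below all WT libraries for 19 of 28 members and 15 of 18 enzymes, as for 23.1% of all genes, and above them for Scap and Mylip, as for 23.2%. The calls fell from 9, beside 12.5% of all genes, to 4 without PyMT sections replicate 2 (3 lower and 1 higher), beside 9.27%. They fell to 1 without any other of the 6 libraries compared, beside 2.83 to 4.77% of all genes. That call was a lower one without WT replicate 3. In the other fits with 1 call it was a higher one, and 0 members were called lower. At an unadjusted p under 0.05 the fits with 1 call had 9 to 11 members lower and 1 higher. With only these 6 libraries in the fit 18 members were called, beside 28.8% of all genes, and with the block added to that fit 18, beside 24.0%. Omitting day 6 replicate 3 and Neu-NT replicate 3, neither of them in this comparison, 16 were called, beside 27.0%. The day 0 PyMT organoids, whose epithelium had also not been cultured, were below all WT libraries for 16 of 28 members, as were 25.4% of all genes, and above them for Dhcr7 and Scap, as were 23.4%.

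Neu-NT sections had 6 of 28 members lower than WT organoids and 1 higher, beside 8.47% lower and 10.5% higher over all genes. Idi1, at 16.4, 8.92 and 6.83 CPM, fell by 2.62 ± 0.48 on the log2 scale (adjusted p = 0.00227), 6.14-fold. Stard4, at 34.3, 15.5 and 21 CPM, fell by 2.03 ± 0.47 (adjusted p = 0.00853). Insig1, at 49.2, 22.4 and 17.8 CPM, fell by 1.91 ± 0.53 (adjusted p = 0.0203). Each of these was below every WT library, as were 16 of 28 members in all and 21.3% of all genes. Only 1 member, Scap, was above every WT library in all 3 sections, as were 19.4% of all genes.

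Pmvk fell by 1.42 ± 0.38 in Neu-NT sections (adjusted p = 0.0165), from 78.7, 63.4 and 78.6 CPM in WT organoids to 36.5, 24.6 and 21.1. Fdps fell by 1.64 ± 0.55 (adjusted p = 0.0492), from 8.11, 6.81 and 6.06 CPM to 3.44, 1.98 and 1.29. Hmgcs1 fell by 1.56 ± 0.50 (adjusted p = 0.0387), to 85.0, 51.6 and 81.7 CPM. Scap was the 1 gene called higher, at 89.3, 83.5 and 79.9 CPM (0.68 ± 0.17, adjusted p = 0.0136). Neu-NT replicate 1 had the highest value of the 3 for 16 of 18 enzymes. In this comparison Idi1 and Stard4 were called under all 13 alternatives, and Fdps under 4 and Hmgcs1 under 5. The calls of 7 members stood beside 19.0% of all genes. Without WT replicate 1, WT replicate 2 or Neu-NT replicate 3 they fell to 4, beside 11.7%, 9.85% and 21.8%. They fell to 3 without Neu-NT replicate 2, beside 14.4%, and to 2 without WT replicate 3, beside 10.6%. Without the 2 libraries that stood apart they rose to 12, beside 29.0% of all genes.

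In both section comparisons markers of other cells differed from WT organoids. Against WT, 4 of 10 macrophage and 4 of 8 lymphocyte markers were called higher in PyMT sections, and 7 of 10 and 4 of 8 in Neu-NT sections. Basal markers were called lower for 4 of 8 genes in PyMT and 5 of 8 in Neu-NT sections. Endothelial markers summed to 114.3 to 183.1 CPM in PyMT sections, 82.4 to 133.7 in Neu-NT sections and 11.5 to 58.6 in WT organoids. Their part in the enzyme values was not tested.

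Between the 2 kinds of section edgeR called no member, beside 9.7% of all genes (4.57% higher and 5.13% lower in PyMT). There, 0 members were higher and 1, Msmo1, lower in PyMT sections at an unadjusted p under 0.05. Msmo1 measured 13.2, 25.4 and 27.5 CPM in PyMT and 72.4, 42.0 and 47.7 in Neu-NT sections, without overlap (log2 fold change -1.30 ± 0.46, adjusted p = 0.0815). DESeq2 called this gene (-1.29, adjusted p = 0.0405). Leaving out the 2 libraries that stood apart, Msmo1 (-1.39, adjusted p = 0.00864), Fdft1 (-0.93, adjusted p = 0.0073) and Ebp (0.59, adjusted p = 0.0063) were called, and without Neu-NT replicate 3 alone 1 member was.

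Some genes of the comparison list also differed in the sections. Stard3, an endosomal cholesterol binding protein, measured 5403, 5097 and 315.4 CPM in Neu-NT sections, 74.1, 51.3 and 117.9 in PyMT sections and 30.5, 23.7 and 31.8 in WT organoids. It was 125.7-fold above WT in Neu-NT sections (log2 fold change 6.97 ± 0.84, adjusted p = 0.000182), and replicate 3 was far below replicates 1 and 2. Whether the Stard3 level bears on sterol handling was not tested. Against WT organoids, 7 of 26 genes were higher and 1 lower in Neu-NT sections, where Ch25h was at 3.25 ± 1.03 (adjusted p = 0.0376), Cyp27a1 at 2.76 ± 0.80 (adjusted p = 0.0257) and Lipa, the lysosomal ester hydrolase, at -2.04 ± 0.44 (adjusted p = 0.00555).

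In PyMT sections 4 of 26 comparison genes were higher than in WT organoids and 3 lower. Cyp27a1 was at 7.37, 6.18 and 12.2 CPM against 0.490, 0.427 and 0.799 (3.90 ± 0.84, adjusted p = 0.0125). Soat1, which esterifies cholesterol, was at 1.6 ± 0.49 (adjusted p = 0.0443). Scarb1 was at -1.49 ± 0.42 (adjusted p = 0.0333). Between the 2 kinds of section, 4 of 26 were higher and 3 lower in PyMT. Stard3 was at -5.47 ± 0.79 (adjusted p = 0.00137), Npc2, a lysosomal cholesterol carrier, at -1.99 ± 0.28 (adjusted p = 0.00137), Srebf1 at 1.76 ± 0.29 (adjusted p = 0.00287) and Lipa at 1.66 ± 0.43 (adjusted p = 0.0251). Srebf1 was at 1290, 1453 and 739.2 CPM in PyMT and 322.6, 408.0 and 300.3 in Neu-NT sections.

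Some members departed from the pattern of the enzymes. Ebp stayed between 38.8 and 89.9 CPM in all 20 libraries, with its highest value in day 6 replicate 3, and was called in none of the 9 comparisons by edgeR with all libraries, where its lowest adjusted p was 0.455, nor by DESeq2, and it passed an unadjusted p under 0.05 in 0. Insig2 ranged from 45.4 to 94.1 CPM and Nr1h2 from 88.8 to 167.8, and neither was called there by edgeR. Insig2 passed an unadjusted p under 0.05 in 2 comparisons and DESeq2's adjusted threshold in 1, and Nr1h2 in 1 and 0. Scap was at 48.7 to 56.4 CPM in WT organoids and at 53.2 and 71.2 in the undated PyMT libraries. The other 15 tumor libraries held 75.8 to 115.1 CPM, so only 1 undated library overlapped with WT.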

How the data were processed

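Gene counts from polyadenylated RNA of 20 libraries were deposited as raw HTSeq counts, 1 table per library. Per the submitters' processing notes the tools were CASAVA, FastQC, STAR, HTSeq and DESeq2 with the mm10 build. Versions, strand setting and annotation release are not given in the sources used here. HTSeq's summary lines (no feature, 5.6 to 12.33%, and ambiguous, 4.68 to 7.39%) were left out of library sizes. Gene counts per library were 17478357 to 48341438.

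Groups came from the labels. edgeR 4.0.16 (TMM scaling, filterByExpr, robust quasi-likelihood fit of all 20 libraries, 1 mean per group) tested 18698 genes, with Benjamini-Hochberg adjustment over them and a threshold of 0.05. For PyMT organoids with 6 days, the means of the day 6 and undated groups had equal weight. SE is the log2 fold change over the square root of F. Alternatives used DESeq2 1.42.0, other filters, scalings, sample sets and a replicate block. The code was tested on simulated data. The members and lists were chosen with earlier results of these data known. All 28 members are described by role, with values per library for those called in at least 1 comparison, and up to 4 comparison genes per comparison with the largest change among those called. The result of 1 comparison gene is not reported here. Same-numbered libraries, from numbers in the titles, deviated together in every pair for PyMT day 6 and day 0 (r = 0.287, 0.428 and 0.317 over genes). Single pairs elsewhere came near these values. The r was 0.336 for PyMT day 6 and sections replicate 3, and 0.275 for Neu-NDL and PyMT day 6 replicate 2. Such an r therefore does not show that libraries were paired. No replicate pair agreed within sampling noise.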

Additional observations from a re-analysis of the deposited data

Results flagged for a closer look

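Among the 5 PyMT organoid libraries with 6 days, day 6 replicate 3 lay far below the other 4 for 8 of 28 genes on the log2 CPM scale, its gap being over 0.71 of the range (Dixon's 95% critical value for 5 samples). Its values were 62.8 CPM for Hmgcs1, 14.5 for Idi1, 1.86 for Fdps, 41.5 for Fdft1, 44.6 for Lss, 30.4 for Msmo1, 35.5 for Sc5d and 22.4 for Stard4. On the linear scale 4 genes passed. The same library lay as far below the others for 3.33% and as far above them for 6.05% of all genes tested. In a group of ordinary spread chance gives about 1 in 20 results with any of the 5 libraries far out, at either end. Over all genes tested, 12.6% had any library far out. The rate of 1 in 20 does not apply to a single named library at a single end.

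Abcg1 differed between the organoids of the 2 tumor models. It was higher in Neu-NDL organoids than in 6 day PyMT organoids by 1.55 on the log2 scale, by edgeR's test of the difference itself. That call was kept under 9 of 16 alternatives. Against WT, edgeR called Abcg1 in neither model (adjusted p = 0.365 in PyMT and 0.244 in Neu-NDL organoids). The 4 PyMT libraries other than day 6 replicate 3 were below every WT library, as for 17.6% of all genes. The 3 Neu-NDL libraries were above every one, as for 17.0% of all genes.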

How the results depend on the processing

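Members called, with the value for all libraries first, changed as follows. For 6 day PyMT against WT organoids, 1 became 3 with DESeq2, 2 with day 6 libraries alone, 0 with undated libraries alone, 16 without the 2 libraries that stood apart, and 0 to 11 leaving out 1 library at a time. For Neu-NDL against WT organoids, 2 became 1 without the filter, 6 with DESeq2, 14 with only the libraries compared, 0 with the replicate block added to that fit, 11 without the 2 libraries, and 0 to 4 leaving out 1. For PyMT sections against WT, 9 became 18 with only the libraries compared, 18 with the replicate block added to that fit, 16 without the 2 libraries, and 1 to 4 leaving out 1. Of the last, 0 to 3 were lower. For Neu-NT sections against WT, 7 became 12 without the 2 libraries and 2 to 6 leaving out 1. For day 6 against day 0, 0 became 11 with DESeq2, 21 without the 2 libraries and 0 to 18 leaving out 1. For day 0 against sections, 0 became 1 with only the libraries compared. For 6 day PyMT organoids against sections, 19 became 0 with only the libraries compared, 0 with the replicate block added to that fit, 0 with day 6 libraries alone, and 0 to 23 leaving out 1. For Neu-NDL against PyMT organoids, 1 became 2 with DESeq2, 0 with only the libraries compared, 0 with the replicate block added to that fit, 0 with day 6 or undated libraries alone, 3 without the 2 libraries, and 0 to 1 leaving out 1. For PyMT against Neu-NT sections, 0 became 1 with DESeq2, 3 without the 2 libraries and 0 to 1 leaving out 1. The omission of the 2 libraries was chosen after seeing the data. Fewer samples enter the leave-out fits, and otherwise the cause was not tested. The block was run only together with the restriction to the libraries compared. Calls over all genes moved too, for example leaving out 1 library from 117 to between 41 and 2437 for day 6 against day 0, from 2989 to between 0 and 6451 for 6 day PyMT organoids against sections, and from 2337 to between 525 and 1729 for PyMT sections against WT. No member called with all libraries changed sign under these alternatives, while some small differences that were not called did.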
